A study of Homo sapiens with 5 samples.

Results

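TEAD4 binding was described around 10 genes for transcription factors of mesenchymal cells and of the epithelial-to-mesenchymal transition (EMT): SNAI1, SNAI2, ZEB1, ZEB2, TWIST1, TWIST2, PRRX1, FOXF1, FOXF2 and OSR1. These are 10 of the 20033 protein-coding genes annotated on hg38 in GENCODE release 44. TEAD4 chromatin immunoprecipitation followed by sequencing (ChIP-seq) was performed in LX-2 cells, an immortalised human hepatic stellate cell line, grown in serum and given the solvent DMSO only. The series holds 3 TEAD4 samples and 2 input samples, and 1 list of 21113 peaks was analysed, which the authors made from TEAD4 replicates 1 and 3 together. There was 1 cell line, 1 condition and no value per replicate, so the values carry no replicate error and no test between samples was possible. No expression was measured in this series, so neither the cell type markers nor the transcript levels of the 10 genes were checked. A peak was counted for a gene when its summit (the point of highest signal) lay in the annotated gene body or within 50 kb of any of its transcription start sites (TSSs).

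TEAD factors bind DNA and act largely through the coactivators YAP1 and TAZ, the nuclear outputs of the Hippo pathway, and they often share regulatory elements with AP-1. EMT factors repress epithelial genes and favour motility and matrix production, while PRRX1, the FOXF proteins and OSR1 act in the mesenchyme of the embryo. Hepatic stellate cells are mesenchymal cells of the liver that turn into matrix-producing myofibroblasts after injury. The sequence no more than 100 bp from each summit was searched, in both orientations, for ACATTCC as the TEAD motif, TGACTCA or TGAGTCA as the AP-1 motif, CACCTG as the E-box of SNAI and ZEB proteins, CAGATG as an E-box of basic helix-loop-helix (bHLH) factors, and TGTGGTT as the RUNX motif. A match describes the letters of a window and is not a measured binding site.

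TEAD4 peaks were listed at SNAI1, SNAI2, TWIST1, TWIST2 and ZEB2, and none was counted at ZEB1, PRRX1, FOXF1, FOXF2 or OSR1. The genes with a peak were thus 5 of 10 (50%), against 56.2% of all protein-coding genes. SNAI1 had 3 peaks, TWIST1, TWIST2 and ZEB2 had 2 each, and SNAI2 had 1, which gave 10 distinct peaks. No gene of the 10 reached 5 peaks, a number reached by 7.19% of protein-coding genes. The median was 0.5 peaks per gene against 1 over all protein-coding genes, in windows of similar size (median 107 kb and 112 kb). Per 100 kb of window the median was 0.445 peaks against 0.666. Of the 10 genes, 2 (SNAI1 and TWIST1) had a promoter peak, with its summit at most 2.5 kb from a TSS, against 16.6% of all protein-coding genes. The TWIST1 call was lost with the canonical TSS only, 2922 bp from the summit, and with a promoter of 1 kb, and the SNAI1 call was lost with peaks at the highest reproducibility score only. Both were lost with peaks above the median signal of the list. The share of genes with a peak was therefore near that of the whole annotation.

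**Figure D1:**
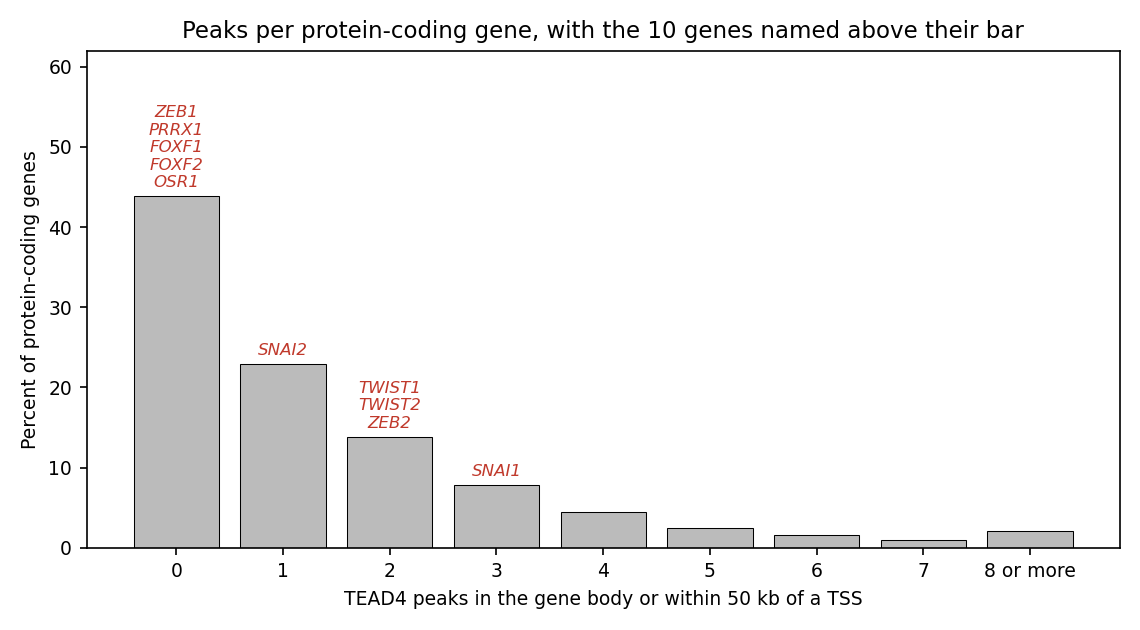
Bars give the percent of 20033 protein-coding genes (y axis) with each number of TEAD4 peaks in the gene body or within 50 kb of a TSS (x axis), and the 10 genes are named above the bar they belong to. ZEB1, PRRX1, FOXF1, FOXF2 and OSR1 stand at 0 peaks with 43.8% of genes, and SNAI1 stands highest of the 10, at 3 peaks.

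The 10 peaks had signal values (the enrichment the peak caller assigned, whose scale the sources used here do not define) between 32.8 and 119.6, with a median of 62.6. All 21113 peaks ranged from 6.57 to 1074.4 with a median of 68.1. Of the 10 peaks, 4 lay above the list median (40.0%, Wilson 95% interval 16.8 to 68.7%, which covers counting error only), and none was among the 1000 strongest. The strongest of them, in an intron of TWIST2, was exceeded by 22.9% of the list. The highest score for reproducibility between the replicates was held by 7 of the 10 (70.0%, against 76.1% of all peaks), and the lowest score, 878 on a scale whose highest value is 1000, belonged to the peak at the SNAI1 TSS. Peaks at these genes were thus of middling signal for this list.

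**Figure D2:**
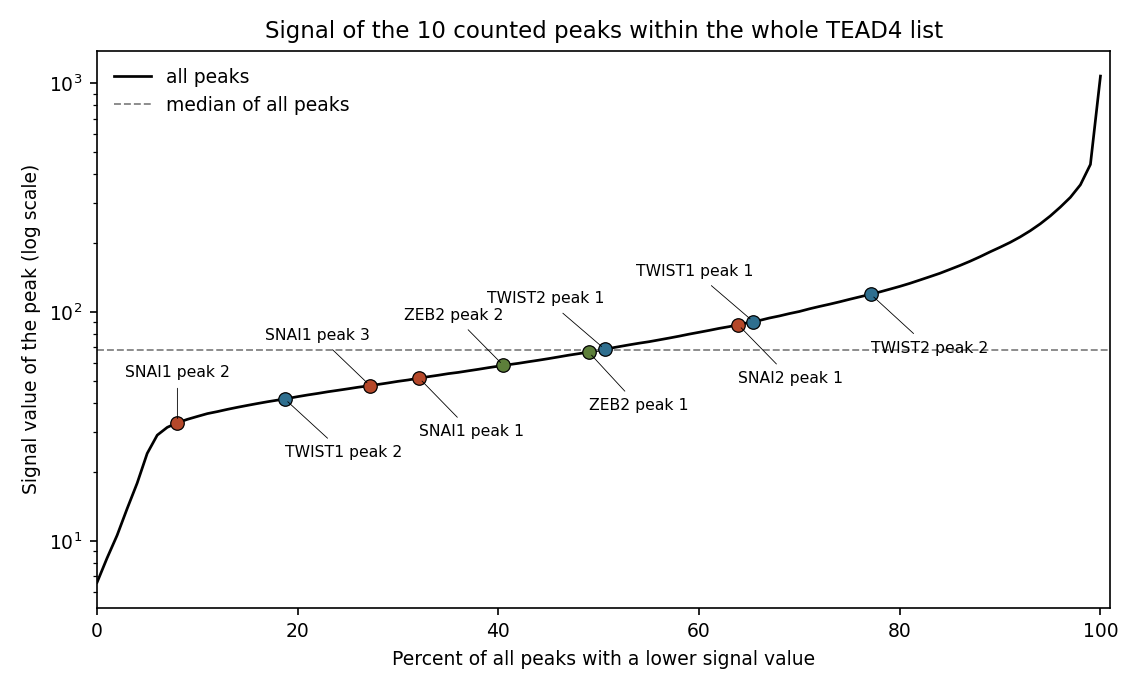
The line gives the signal value (y axis, log scale) of all peaks against the percent of the list with a lower value (x axis), points mark the 10 counted peaks (red for SNAI, green for ZEB, blue for TWIST genes), and the dashed line is the list median of 68.1. The 3 SNAI1 peaks lie at 32.8, 47.7 and 51.4, all below the median, and the second TWIST2 peak is the strongest at 119.6.

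SNAI1 encodes Snail, a zinc finger repressor of the E-cadherin gene and a classical inducer of EMT. It is a short gene on the plus strand (chr20:49982980-49988886, 5.91 kb, 1 annotated TSS). Its 3 peaks lay upstream, at the TSS and at the end of the gene. The first, chr20:49968754-49969197, had a signal of 51.4 and its summit 14004 bp upstream of the TSS. The second, chr20:49982734-49983177, had a signal of 32.8 and its summit 24 bp upstream of the TSS, the closest to a TSS of all 10 peaks. It was also the weakest of the 10, with 8.01% of the list weaker. The sequence within 100 bp of its summit had a GC content of 68.7%. The third, chr20:49988260-49988703, had a signal of 47.7 and lay 5502 bp downstream of the TSS, in exonic sequence after the last coding base. SNAI1 was the gene with the nearest TSS for all 3 peaks, also when TSSs of long non-coding RNAs were counted.

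With 3.0 peaks per 100 kb, SNAI1 had the densest window of the 10 genes, and 7.23% of protein-coding genes had at least this density. Its number of 3 peaks was reached by 19.4% of protein-coding genes. None of the 3 peaks held the TEAD or the AP-1 motif. The third held a CACCTG E-box 35 bp from its summit, the sequence that Snail and ZEB proteins themselves bind, and it was the only one of the 10 peaks with this motif (10.0%, Wilson 95% interval 1.79 to 40.4%, against 6.58% of all peaks). The plus strand of hg38 around the first SNAI1 summit is shown as an example of a peak without any of the searched motifs, hence without capitals, over chr20:49968896-49969056.
SNAI1 peak 1: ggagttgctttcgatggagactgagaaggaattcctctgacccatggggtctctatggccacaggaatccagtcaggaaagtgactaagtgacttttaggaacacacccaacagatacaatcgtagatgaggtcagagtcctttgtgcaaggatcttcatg

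The nearest peak outside the SNAI1 window lay only just beyond the limit. Its summit was 51.2 kb downstream of the TSS with a signal of 141.3, higher than any of the 10 counted peaks, and a further peak followed at 61.2 kb with a signal of 98.7. The TSS of SNAI1 was the nearest protein-coding one for both. Within 500 kb, 31 peaks were listed around SNAI1, a number reached by 1.33% of protein-coding genes. The strongest of these had a signal of 475.2 with a TEAD motif, 183 kb downstream of the SNAI1 TSS, and its nearest protein-coding TSS was that of PEDS1 at 12.5 kb. For most of the 31 peaks the nearest protein-coding TSS was likewise that of another gene, and some of their intervals overlapped. So the low signal at SNAI1 itself stood in a neighbourhood with many peaks. Of the 31, 12 lay above the list median, fewer than lay below it.

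SNAI2 encodes Slug, the paralog of Snail, expressed in many mesenchymal cells. It lies on the minus strand (chr8:48917598-48921740) and had 1 peak, chr8:48902953-48903147, with a signal of 87.9. The summit lay 18372 bp downstream of the nearest TSS and 14.5 kb past the end of the gene. The peak was 195 bp wide, the narrowest of the 10. A TEAD motif stood 9 bp and an AP-1 motif 14 bp from the summit, with 16 bases between them, and a CAGATG E-box followed at 53 bp. Only 5 peaks lay within 500 kb of SNAI2, against 31 for SNAI1, a number reached by 76.6% of protein-coding genes. The paralogs thus differed in the peaks counted: SNAI1 had more and weaker peaks without the TEAD motif, SNAI2 a single one with it. With peaks at the highest reproducibility score only, each had 1. With peaks above the list median only, SNAI1 had 0 and SNAI2 had 1. The TEAD motif was found in 23.0% of all peaks, so most of the list lacked it too.

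TWIST1 and TWIST2 encode bHLH factors that drive mesenchymal development and EMT. TWIST2 (plus strand, chr2:238848032-238910534) held both of its peaks in introns. The first, chr2:238864153-238864596, lay 16159 bp downstream of the nearest TSS with a signal of 68.8. The second, chr2:238895953-238896199, lay 47856 bp downstream with a signal of 119.6, the highest of the 10. It was 247 bp wide. For this peak the nearest TSS of any kind was that of the long non-coding RNA gene LINC01940, at 30197 bp, while the nearest protein-coding TSS was that of TWIST2. At 47856 bp it was also the peak closest to the limit of 50 kb from inside.

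The second TWIST2 peak held a TEAD motif 7 bp and an AP-1 motif 65 bp from its summit, with 51 bases between them. The first held an AP-1 motif at 40 bp and a CAGATG E-box at 67 bp. Both are shown, since they include the strongest of the 10 peaks and 1 of only 2 with the TEAD motif. The lines give the plus strand of hg38 over chr2:238864295-238864455 and chr2:238895992-238896152, and capitals mark the E-box and then the AP-1 motif in peak 1, and the TEAD and then the AP-1 motif in peak 2.
TWIST2 peak 1: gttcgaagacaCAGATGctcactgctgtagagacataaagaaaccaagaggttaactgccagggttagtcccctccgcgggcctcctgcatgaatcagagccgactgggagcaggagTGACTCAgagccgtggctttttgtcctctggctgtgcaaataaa
TWIST2 peak 2: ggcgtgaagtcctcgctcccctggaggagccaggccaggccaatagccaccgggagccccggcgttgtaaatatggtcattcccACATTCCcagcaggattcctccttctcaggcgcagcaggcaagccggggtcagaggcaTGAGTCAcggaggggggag
In the second line the shorter word CATTCC stands once more just before the marked TEAD motif.

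TWIST1 (minus strand) is annotated from chr7:19020991 to chr7:19117636, 96.6 kb, because of a long transcript that extends downstream. Its canonical transcript, the one that Ensembl takes as representative, spans chr7:19115468-19117636 alone. Both TWIST1 peaks were intronic in the long annotation and lay past the end of the canonical transcript. The first, chr7:19066107-19066550, had a signal of 90.8 and lay 50595 bp from the nearest TWIST1 TSS, so it was counted through the gene body and would not have been by distance. The nearest TSS of any kind was that of an unnamed long non-coding RNA gene, ENSG00000232821, at 46145 bp. The second, chr7:19114492-19114935, had a signal of 41.7, lay 2210 bp downstream of the nearest TSS, and its summit was 754 bp past the end of the canonical transcript. The peak near the TSS was thus the weaker of the pair, and at SNAI1 too the peak nearest to the TSS was the weakest.

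Neither TWIST1 peak held a TEAD or AP-1 motif. The first had a RUNX motif 59 bp from its summit, the only one among the 10 peaks (10.0%, against 9.53% of all peaks). It also had the lowest GC content of the 10 within 100 bp of the summit, 25.9%. The median was 49.3% for the 10 peaks and 44.8% for all peaks. It is shown as the strongest of the 10 without a TEAD motif, on the plus strand of hg38 over chr7:19066249-19066409, with the RUNX motif in capitals as its reverse complement.
TWIST1 peak 1: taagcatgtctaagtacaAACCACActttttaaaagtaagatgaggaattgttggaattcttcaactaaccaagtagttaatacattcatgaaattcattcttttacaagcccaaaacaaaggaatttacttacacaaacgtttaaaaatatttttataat

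ZEB1 and ZEB2 encode zinc finger and homeodomain repressors of epithelial genes. They differed in the list. ZEB2 (minus strand, chr2:144364364-144521057) had 2 peaks and ZEB1 (plus strand, chr10:31318495-31529814) none, although the ZEB1 window of 261 kb was the largest of the 10. The first ZEB2 peak, chr2:144357976-144358419, had a signal of 66.8 and lay 6.17 kb past the end of the gene, 38263 bp from the nearest of its 46 annotated TSSs and 162 kb from the canonical one. It was the only one of the 10 peaks with a closer protein-coding TSS of another gene, that of GTDC1 at 25630 bp. The second, chr2:144390569-144391012, had a signal of 58.4 and lay in an intron, 5670 bp from an internal TSS and 129 kb from the canonical TSS. Neither ZEB2 peak was therefore near the canonical promoter.

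An AP-1 motif stood 72 bp and a CAGATG E-box 56 bp from the summit of the first ZEB2 peak, and a CAGATG E-box stood 45 bp from that of the second. Neither held ACATTCC. The shorter word CATTCC occurred 3 times within 100 bp of the second summit, more often than at any other of the 10 peaks. Both peaks are shown for these motifs, on the plus strand of hg38 over chr2:144358118-144358278 and chr2:144390711-144390871, with the AP-1 motif and the E-boxes in capitals, the E-box of peak 2 as its reverse complement.
ZEB2 peak 1: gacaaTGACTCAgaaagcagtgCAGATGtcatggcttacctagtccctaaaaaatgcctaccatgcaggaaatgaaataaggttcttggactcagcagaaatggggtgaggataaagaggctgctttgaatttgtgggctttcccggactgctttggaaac
ZEB2 peak 2: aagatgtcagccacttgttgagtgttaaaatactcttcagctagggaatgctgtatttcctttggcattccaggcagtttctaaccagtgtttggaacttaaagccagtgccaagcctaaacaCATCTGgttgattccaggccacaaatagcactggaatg

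The peak nearest to a ZEB1 TSS was 184 kb upstream with a signal of 146.6, inside the long non-coding RNA gene ENSG00000287564, and the next was 221899 bp downstream with a signal of 63.3. Within 500 kb of a TSS, 9 peaks were listed for ZEB1, the median over all protein-coding genes being 9, and 15 for ZEB2. The ZEB1 window held 42 TEAD motifs, the most of the 10 windows, and the ZEB2 window 39. The ZEB1 window held no summit, and no TEAD motif of the ZEB2 window lay within 100 bp of one. Per 100 kb of window the TEAD motif number was 16.1 for ZEB1 and 17.4 for ZEB2. The difference in peaks was 2 against 0, and ZEB2 kept 1 when only peaks with its TSS as the nearest protein-coding one were counted. With peaks above the list median only, ZEB2 had 0 as well. A relation between motif number and peaks was not tested.

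PRRX1 encodes a paired-related homeobox factor of limb and craniofacial mesenchyme and of fibroblasts. Of the 10 genes it was the farthest from any peak. PRRX1 (plus strand, chr1:170662728-170739421) had its nearest peak 353 kb upstream of a TSS, a distance reached by 6.06% of protein-coding genes, and this was the only peak within 500 kb. At least 1 peak within 500 kb was found for 96.4% of protein-coding genes. That peak, chr1:170309773-170310014, had a signal of 147.8 and held a TEAD and an AP-1 motif. Its nearest protein-coding TSS was that of NTMT2, 152 kb away. The next peak lay 708 kb downstream. The PRRX1 window held 25 TEAD motifs (14.9 per 100 kb) and no peak.

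FOXF1 and FOXF2 encode forkhead factors of visceral mesenchyme, and each stands in a cluster of forkhead genes. Around FOXF1 (plus strand, chr16:86510527-86515422) the nearest peak, chr16:86609149-86609354, lay 98.7 kb downstream with a signal of 127.6. The nearest protein-coding TSS was that of FOXL1, at 30.7 kb, and this 1 peak was the only one counted by the same rule for either FOXL1 or FOXC2, the other forkhead genes of the cluster. The FOXF1 window was also poorest in TEAD motifs, with 4 (4.0 per 100 kb, against 17.1 over the genome). Around FOXF2 (plus strand, chr6:1389576-1395603) the nearest peak, chr6:1325699-1325913, lay 63.8 kb upstream with a signal of 133.5, and its nearest protein-coding TSS was that of FOXQ1 at 13.7 kb. On the other side, peaks at 71.9 kb (signal 48.7) and 91.9 kb (signal 268.1) downstream had FOXF2 as the nearest protein-coding gene. FOXF2 was thus without a counted peak but had 4 within 100 kb, 2 of them summits of 1 interval at about 92 kb.

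OSR1 encodes an odd-skipped zinc finger factor of the intermediate mesoderm and of fibroblast progenitors. OSR1 (minus strand, chr2:19351485-19358623) had its nearest peak 180 kb upstream, with a signal of 56.5 and 2 AP-1 motifs. None lay within 100 kb, and 17 within 500 kb, a number reached by 14.7% of protein-coding genes. OSR1 thus stood above the median gene in peaks at this distance and had none close by.

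**Figure D3:**
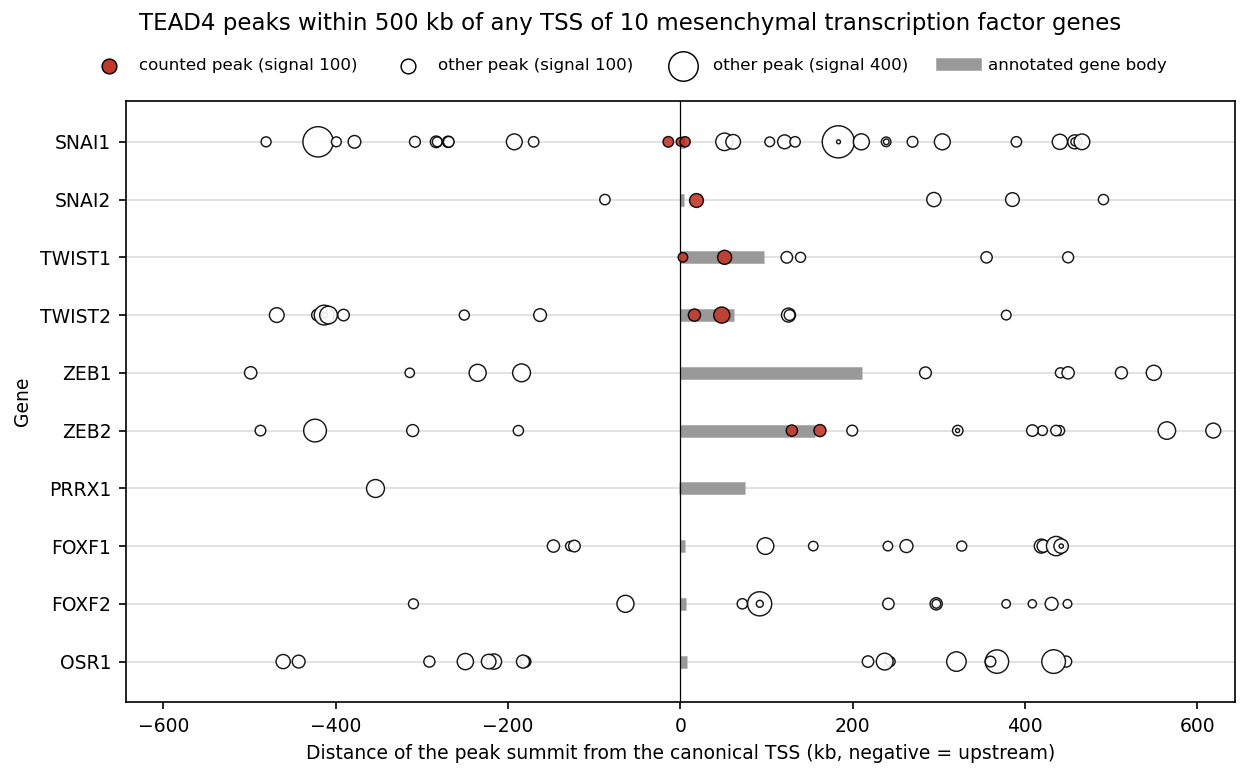
Circles mark TEAD4 peaks within 500 kb of any TSS of each gene (y axis) by distance of the summit from the canonical TSS in kb (x axis, negative upstream), with circle area in proportion to signal. Red circles are the 10 counted peaks, white circles the others, and grey bars annotated gene bodies. SNAI1 has 31 peaks in view and PRRX1 has 1, and no circle lies close to the bars of ZEB1, PRRX1, FOXF1, FOXF2 or OSR1.

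The distance from a TSS to the nearest peak had a median of 41.1 kb over the 10 genes and of 39.5 kb over all protein-coding genes. The median number of peaks within 500 kb was 12.5 against 9. The windows of the 10 genes held few TSSs of other protein-coding genes, with a median of 0 against 2. Of the 10 summits, 2 lay within 2.5 kb of a TSS, 2 between 2.5 and 10 kb, 3 between 10 and 25 kb, 2 between 25 and 50 kb, and 1 (TWIST1 peak 1) beyond 50 kb inside the annotated gene. The gene a peak was counted for had the nearest protein-coding TSS in 9 of the 10 cases, and the nearest TSS of any kind, long non-coding RNAs included, in 7. By position, 6 were in the gene body, 2 were upstream of the gene, both at SNAI1, and 2 lay past the end of the gene, at SNAI2 and ZEB2.

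Promoters of the 10 genes were mostly rich in CpG. The ratio of observed to expected CpG within 500 bp of the canonical TSS exceeded 0.6 in 8 of the 10 genes, against 66.3% of protein-coding genes, and was 0.525 for ZEB2 and 0.584 for PRRX1. Among protein-coding genes above 0.6, 19.9% had a promoter peak and 60.5% a peak by the full rule. FOXF1 (0.917) and FOXF2 (0.873) had the highest ratios of the 10 and no counted peak.

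The TEAD motif was found in 2 of the 10 peaks, SNAI2 peak 1 and TWIST2 peak 2 (20%, Wilson 95% interval 5.67 to 51.0%), against 23.0% of all peaks. The AP-1 motif was found in 4 peaks, at SNAI2, at ZEB2 and in both TWIST2 peaks (40.0%, interval 16.8 to 68.7%), against 25.4% of all. Within 50 bp of the summit it was found in 2 of the 10 (20%, against 17.2% of all peaks). Both TEAD-motif peaks also held AP-1, so 20% had the pair, with the same interval, against 4.49% of the whole list. Within 50 bp of the summit only the SNAI2 peak kept the pair, since the AP-1 motif of TWIST2 peak 2 stood at 65 bp. The CAGATG E-box was found in 4 peaks, 1 each at SNAI2 and TWIST2 and both at ZEB2 (40.0%, interval 16.8 to 68.7%), against 16.7% of all peaks. Neither TEAD nor AP-1 was found in 6 peaks (60.0%, interval 31.3 to 83.2%), against 56.1% of the list. With 10 peaks these intervals are wide, and the motif shares at the 10 genes were not tested against the list.

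The TEAD-motif peaks were the only 2 of the 10 narrower than 444 bp, the most common width, which the other 8 had. Over the whole list the motif was found in 29.2% of peaks under 444 bp (median signal 132), 19.2% of peaks of 444 bp (median signal 51.0) and 27.7% of wider peaks (median signal 302). The part of width and signal in the motif content at the 10 genes was not tested.

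**Figure D4:**
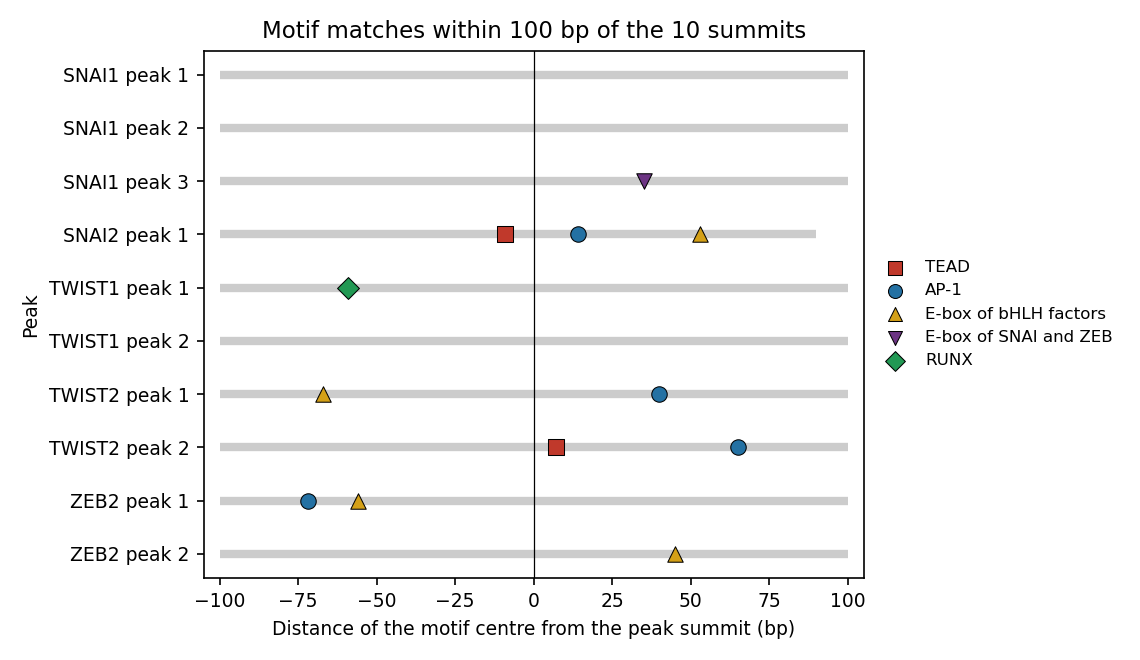
Each row is 1 of the 10 peaks, with the distance of each motif's centre from the summit in bp (x axis); the grey bar is the stretch of peak within 100 bp of the summit, and symbols give the motif. TEAD motifs stand 9 bp and 7 bp from the summits at SNAI2 and TWIST2, while AP-1 motifs lie between 14 and 72 bp away.

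Most TEAD motifs near these genes lay outside the listed peaks, as did most over the whole genome. The 10 windows, 1415 kb in all, held 213 TEAD motifs (15.1 per 100 kb, against 17.1 over the genome). Of these, 2 were within 100 bp of a summit. Over the genome there were 502196 TEAD motifs, and 4849 of all 21113 peaks had one within 100 bp of the summit. The AP-1 motif occurred 209 times (14.8 per 100 kb, against 15.7), and 4 of these were within 100 bp of a summit. Over the genome it occurred 462326 times, and 5363 of all peaks had one. A difference between the 10 windows and the genome was not tested.

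Related genes were counted by the same rule. Of 16 other transcription factors of mesenchyme and stellate cells, 11 had a peak (68.8%, against 56.2% of all protein-coding genes) and 4 a promoter peak (against 16.6% of all). Their median was 1 peak per gene, against 0.5 for the 10 genes and 1 for all protein-coding genes. NR2F2 and TBX18 had 5 each, with a strongest signal of 479.1 at TBX18, and GATA4 and MEIS2 had 3 each. PRRX2, the paralog of PRRX1, had none, as did TCF21, GATA6, NR2F1 and TBX20. Of 11 other EMT transcription factors reported here, 7 had a peak (63.6%, against 56.2% of all protein-coding genes). In this list 2 had a promoter peak (against 16.6% of all), and the median was 1 peak per gene. ETS1 had 7 peaks, HMGA2 had 5 and TCF4 had 4, and none was counted at SNAI3, TCF3, KLF8 or SOX4. Of 11 epithelial transcription factors reported here, 9 had a peak (81.8%, against 56.2%) and 3 a promoter peak (against 16.6%). Their median was 2 peaks per gene. GRHL3 had 5 and KLF5, OVOL2 and TP63 had 3 each, and KLF4 and HNF4A had none. A peak was thus present at most genes of each list, the epithelial one included, as it was at 56.2% of all protein-coding genes. The differences between the lists, and from all protein-coding genes, were not tested.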

How the data were processed

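TEAD4 ChIP-seq of LX-2 cells was used as the authors deposited it. The authors mapped reads to hg38 with Chromap and ran the ENCODE IDR (irreproducible discovery rate) pipeline, which compares peak ranks between replicates. Replicate 2 was left out by the authors, who report that by IDR only replicates 1 and 3 agreed well enough. The reproducibility scores thus come from a pair kept for its agreement. The deposited list gives a signal value, a scaled IDR score and a −log10 q-value for each peak of replicates 1 and 3 together, and these meanings were read from its layout. The q-value of all 10 peaks was 4.76 on the −log10 scale. The peak caller is not given in the sources used here, input was not analysed separately here, and depth per sample is unknown.

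Summits were assigned to GENCODE release 44 genes with Python 3.11.15, pandas 2.3.3 and numpy 2.4.6, and motifs were read from the hg38 sequence. Coordinates are 1-based. Assignment, merging and motif search were checked on simulated data, with 0 differences in 300 genes, 489 regions, 500 peaks and 400 planted motifs. Intervals of shares are Wilson 95% intervals (scipy 1.17.1).

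The 10 genes, the related lists and the motifs were chosen with earlier results of these data known. All peaks of the 10 genes were named. Other genes were named where their TSS was nearest to a described peak or their body held it, and in each related list where they had the most peaks or none. Some genes of the lists of other EMT and of epithelial factors, and counts over the whole of these lists, are not reported here. PEDS1, the peaks beyond 50 kb and the widths were chosen after their values were seen.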

Additional observations from a re-analysis of the deposited data

How the results depend on the processing

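Each main result was recomputed under other peak sets, distances, annotations and motif windows. Of 67 values, 57 stayed within 1.5 times the main count or inside the main interval and 10 did not. With peaks above the list median only, 3 genes had a peak, 4 peaks were counted, 0 genes had a promoter peak and the AP-1 share was 75.0%. With peaks at the highest IDR score only, 1 gene had a promoter peak (TWIST1). With a promoter of 1 kb (1) or the canonical TSS only (1) it was SNAI1. With 100 kb instead of 50 kb, 19 peaks were counted, at 7 genes. With 500 kb, an alternative chosen after seeing the data, 122 peaks were counted and 10 genes had one. With gene body and TSS of the canonical transcript alone, also chosen after seeing the data, 8 peaks remained in count at 5 genes, without TWIST1 peak 1 and ZEB2 peak 1. Over all alternatives the AP-1 share ran from 20% (50 bp each side, against 17.2% of all peaks in that window) to 75.0%, and the TEAD share from 10.5% (100 kb) to 50% (peaks above the list median). The shorter motif CATTCC was found in 30.0% of the 10 peaks and 46.8% of all peaks. Of 100 recomputed peak numbers per gene, 13 moved, either by more than 1.5 times or between 0 and a higher number. The moves up from 0 were those of FOXF1 (to 1) and FOXF2 (to 4) with 100 kb, where SNAI1 also rose to 5 and SNAI2 to 2. With peaks above the list median only, SNAI1 and ZEB2 fell to 0 and TWIST1 to 1. With peaks at the highest IDR score only, SNAI1 and ZEB2 fell to 1. ZEB2 also fell to 1 with 25 kb, with the canonical TSS only, and with peaks nearest to its own TSS only. TWIST1 fell to 1 when the gene body was not counted. A gene with 0 peaks can only stay at 0 where an alternative narrows the peak set or the distance. Such unchanged values carry no information.

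No paired analysis was possible because replicates 1 and 3 share 1 set of peaks and no test between samples was made. Fits without 1 of the replicates were likewise not run. A gene without a listed peak had none that passed the authors' selection in these replicates, which does not measure the absence of TEAD4. Assignment by distance does not show which gene a peak acts on.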
